A study of Mus musculus with 12 samples.

Results

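Esrrb, Esrra, Nr5a2, Nr0b1 and Nr6a1 encode orphan nuclear receptors with known roles in pluripotent cells, and they were followed here across 4 groups of mouse cells. They are 5 of the 18524 genes named by the array's annotation. Every probe annotated to 1 of them was taken, which gave 9 probes of the 45281 on the Illumina MouseWG-6 v2 array: 2 for Esrrb, 2 for Esrra, 3 for Nr5a2, 1 for Nr0b1 and 1 for Nr6a1. Each group was measured on 3 arrays, 12 in all. The EpiSC group held epiblast stem cells, which resemble the post-implantation epiblast, of a TNG line with a tdTomato reporter behind Esrrb and a GFP reporter in 1 Nanog allele, cultured with Activin and FGF in N2B27. The EsrrbNeg, EsrrbMed and EsrrbHi groups were SSEA-1+ embryonic stem cells (ESCs) of 1 clonal E14Tg2a line, kept in serum and LIF, plated for 3 days and sorted for no, medium or high fluorescence of a destabilised GFP placed after the Esrrb reading frame on both alleles. The study calls the EpiSC embryo-derived, with late bud as the stage, and describes no sort for them. As described, EpiSC thus differ from the ESC groups also in origin, sorting, cell line, reporters, medium and number of intact Nanog alleles, which cannot be told apart here. The reporters lie at the 3′ end of Esrrb, and where the Esrrb probes lie relative to them was not analysed here. The study describes the arrays of the sorted populations as independent experiments. Whether the EpiSC replicates were separate cultures is not given in the sources used here, so their spread may be technical.

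Nuclear receptors are transcription factors with a zinc finger DNA-binding domain and a ligand-binding domain, and many of them bind AGGTCA half-sites. ESRRB acts with NANOG, KLF4 and TFCP2L1 to maintain naive pluripotency in mouse ESCs. NR5A2, also called LRH-1, binds regulatory regions of Oct4 (Pou5f1), and NR0B1, also called DAX1, lacks the usual zinc fingers and acts mainly as a repressor. NR6A1, also called GCNF, represses Oct4 when ESCs differentiate, and ESRRA works with PGC-1 coactivators on mitochondrial genes.

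In RefSeq (GRCm38.p6) Esrrb spans chr12:86361117-86521628, Esrra chr19:6910977-6922048, Nr5a2 chr1:136842562-136960448, Nr0b1 chrX:86191775-86195947 and Nr6a1 chr2:38723369-38926461. The 250 bases before 2 starts each of Esrrb, the sorted gene, and of Nr5a2, lower in EsrrbNeg cells, are shown from RefSeq. Those before the inner start of Nr6a1, which was not lower, follow. All are given 5′ to 3′ on the gene's strand, with AGGTCA on either strand in capitals.
Esrrb chr12:86360867-86361116, plus strand: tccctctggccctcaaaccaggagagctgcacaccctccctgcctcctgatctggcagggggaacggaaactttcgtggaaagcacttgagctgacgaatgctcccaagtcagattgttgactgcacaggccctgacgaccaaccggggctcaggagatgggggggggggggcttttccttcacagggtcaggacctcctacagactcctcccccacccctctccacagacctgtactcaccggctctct
Esrrb chr12:86421394-86421643, plus strand: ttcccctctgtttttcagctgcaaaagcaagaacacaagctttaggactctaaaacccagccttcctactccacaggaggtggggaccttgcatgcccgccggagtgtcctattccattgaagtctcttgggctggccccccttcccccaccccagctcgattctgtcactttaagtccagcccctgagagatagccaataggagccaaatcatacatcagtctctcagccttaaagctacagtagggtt
Nr5a2 chr1:136953631-136953880, minus strand: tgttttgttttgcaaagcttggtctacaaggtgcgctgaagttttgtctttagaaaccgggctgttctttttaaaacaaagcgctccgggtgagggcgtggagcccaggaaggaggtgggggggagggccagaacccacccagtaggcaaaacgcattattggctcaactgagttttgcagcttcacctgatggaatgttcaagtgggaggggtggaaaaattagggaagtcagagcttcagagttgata
Nr5a2 chr1:136960449-136960698, minus strand: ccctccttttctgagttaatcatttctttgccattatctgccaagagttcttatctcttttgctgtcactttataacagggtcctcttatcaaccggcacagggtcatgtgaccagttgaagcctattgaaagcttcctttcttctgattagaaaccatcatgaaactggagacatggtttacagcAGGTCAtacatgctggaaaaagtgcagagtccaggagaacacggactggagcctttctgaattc
Nr6a1 chr2:38784516-38784765, minus strand: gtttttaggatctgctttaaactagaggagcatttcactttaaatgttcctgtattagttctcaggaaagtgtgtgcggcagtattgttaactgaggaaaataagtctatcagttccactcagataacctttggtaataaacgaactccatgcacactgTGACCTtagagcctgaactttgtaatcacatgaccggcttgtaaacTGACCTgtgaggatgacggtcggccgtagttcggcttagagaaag
AGGTCA stood 64 bases before the outer Nr5a2 start, and its reverse complement TGACCT 91 and 45 bases before the inner Nr6a1 start. Of the members' other windows, that of Nr0b1 held AGGTCA 126 bases before the start, and those of Esrra and of the outer Nr6a1 start held neither form. AGGTCA was found on either strand in 14% of the 32851 RefSeq promoter windows of this length. The longer TCAAGGTCA, which contains AGGTCA and is bound by ESRRB and NR5A2, was in 0.387% of all windows and in none of the 8 windows of the members. A match describes the sequence only.

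A probe was counted as detected on an array at a detection p of at most 0.01. By this measure 4 of the 9 member probes were detected on all 12 arrays (1 of Esrrb, both of Esrra and that of Nr6a1), 2 of the Nr5a2 probes on 10 and 9 arrays, and 3 on no array: ILMN_2555396 of Esrrb, ILMN_2751680 of Nr5a2 and ILMN_2615796 of Nr0b1. Brightness differed between arrays, with 95th percentiles of intensity of 403 to 974 and 13333 to 15393 detected probes, so intensities are given beside values normalised with neqc (log2 scale). Replicates 1 and 2 of the ESC groups were on 1 chip, and replicate 3 of each with all EpiSC arrays on the other. The normalised values have the fitted chip difference removed, except in folds given as at least a value and in summed marker levels. Limma's tests carry a chip term. A change was called at an adjusted p of at most 0.05 and at least 1.5-fold.

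**Figure D1:**
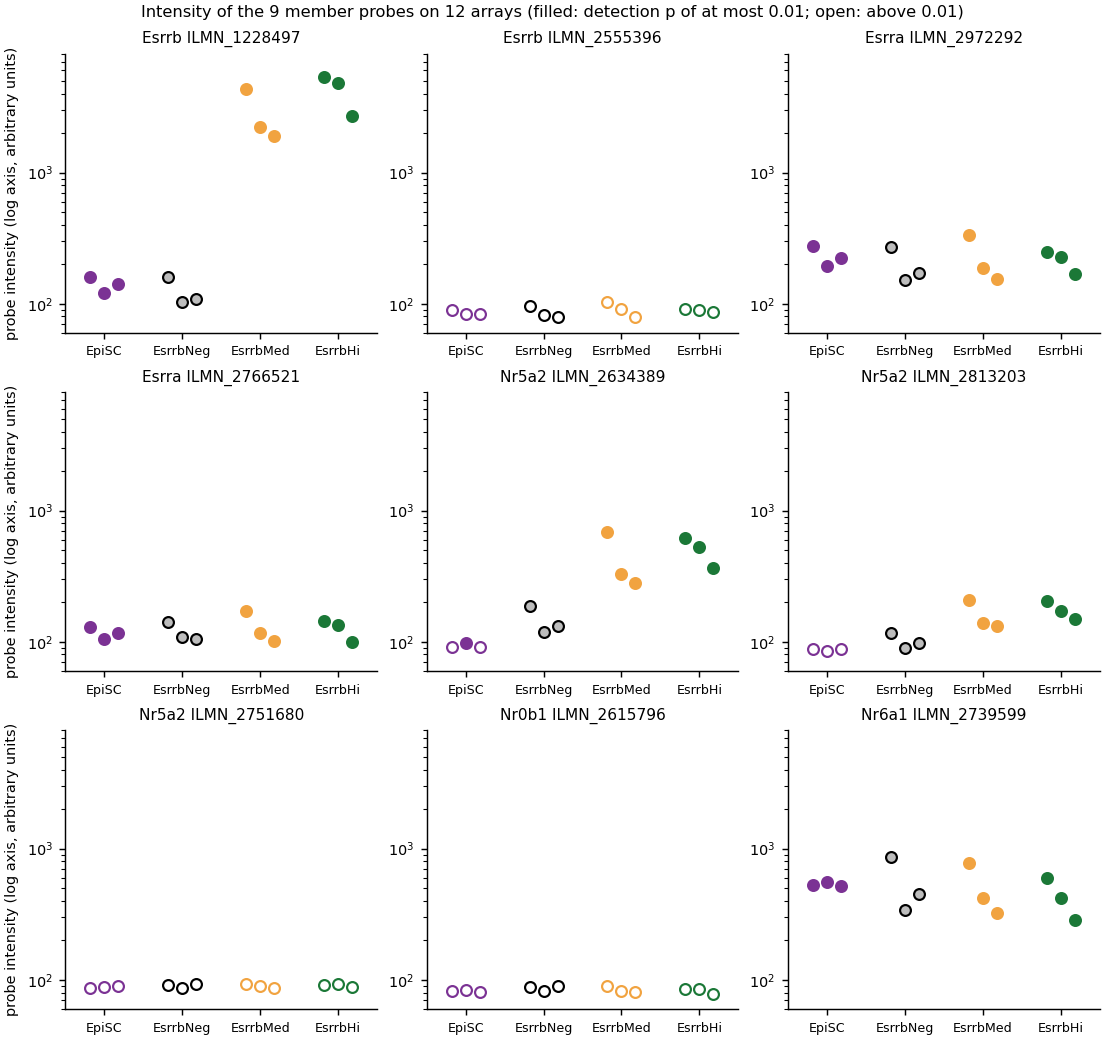
Intensity (log axis, arbitrary units, not normalised) of the 9 member probes, with 1 panel per probe and 1 point per array, in EpiSC, EsrrbNeg, EsrrbMed and EsrrbHi cells; filled points were detected. Esrrb ILMN_1228497 read at most 161 in EpiSC and EsrrbNeg arrays and at least 1912 in EsrrbMed and EsrrbHi arrays, while Nr0b1 was detected on none.

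Esrrb was read by ILMN_1228497. Its intensity was 160, 121 and 142 in EpiSC, 161, 104 and 109 in EsrrbNeg, 4368, 2206 and 1912 in EsrrbMed and 5360, 4812 and 2714 in EsrrbHi arrays, and it was detected on every array. The EpiSC and EsrrbNeg arrays lay far below the EsrrbMed and EsrrbHi arrays, yet above background. Since the ESCs were sorted on a reporter of this gene, the differences among ESC groups check the labels and are no finding. Normalised levels averaged 6.40 ± 0.29 in EpiSC, 5.61 ± 0.10 in EsrrbNeg, 11.24 ± 0.15 in EsrrbMed and 11.93 ± 0.11 in EsrrbHi cells (log2, SD, n = 3 each), with no overlap between neighbours in the order of levels, EsrrbNeg, EpiSC, EsrrbMed and EsrrbHi. EsrrbNeg was 79.7-fold lower than EsrrbHi (log2 fold change -6.32 ± 0.14 SE, adjusted p = 3.7e-12) and 49.6-fold lower than EsrrbMed (-5.63 ± 0.14, adjusted p = 1.74e-11). Without background correction these changes were -5.05 and -4.37. EsrrbMed was 1.61-fold lower than EsrrbHi (-0.69 ± 0.14, adjusted p = 0.0183), with differences of -0.83 within chip 1 and -0.41 within chip 2. That call was lost without EsrrbHi replicate 1 (limma adjusted p = 0.0872), EsrrbHi replicate 2 (0.0874), EsrrbMed replicate 1 (0.0707) or EsrrbMed replicate 2 (0.118). The second Esrrb probe, ILMN_2555396, annotated to a separate cDNA, read 78.8 to 104 over the 12 arrays with a detection p of at least 0.0203, and gives no level.

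EpiSC, for which the study describes no sort, had little Esrrb signal too. EpiSC were 46.1-fold lower than EsrrbHi (log2 fold change -5.53 ± 0.16, adjusted p = 3.86e-11) and 28.6-fold lower than EsrrbMed (-4.84 ± 0.16, adjusted p = 1.53e-10), with -4.65 and -3.97 without background correction. The levels of the ESC groups were set by the sort, and EsrrbNeg cells were chosen for the absence of the Esrrb reporter, so the comparisons with EpiSC describe EpiSC beside these sorted levels. Normalised values were 6.63, 6.07 and 6.51 in EpiSC and 5.72, 5.53 and 5.58 in EsrrbNeg arrays, which did not overlap. EpiSC lay 1.73-fold above EsrrbNeg (log2 fold change 0.79 ± 0.16, 95% confidence interval 0.45 to 1.13, adjusted p = 0.00132). The change was 0.40 without background correction and 0.33 in the authors' log2 table, both under 1.5-fold, and within chip 2, with 1 EsrrbNeg array, it was 0.82 with an adjusted p of 0.0656.

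Nr5a2, which encodes a receptor active in the early embryo, was lower in both EsrrbNeg cells and EpiSC by each of its 2 detected probes. ILMN_2634389 had intensities of 91.4, 98.0 and 91.2 in EpiSC, 189, 119 and 131 in EsrrbNeg, 688, 329 and 281 in EsrrbMed and 619, 530 and 368 in EsrrbHi arrays. It was detected on 1 of 3 EpiSC arrays and on every ESC array. Normalised, it averaged 4.69 ± 0.31 in EpiSC, 6.18 ± 0.02 in EsrrbNeg, 8.34 ± 0.11 in EsrrbMed and 8.77 ± 0.05 in EsrrbHi cells (log2, SD, n = 3 each), and no 2 groups overlapped. EsrrbNeg was 5.99-fold lower than EsrrbHi (log2 fold change -2.58 ± 0.13, adjusted p = 6.53e-09) and 4.45-fold lower than EsrrbMed (-2.15 ± 0.13, adjusted p = 9.66e-08), with -1.79 and -1.43 without background correction. EsrrbMed against EsrrbHi gave -0.43 ± 0.13 (95% confidence interval -0.71 to -0.15), which did not pass the test (adjusted p = 0.101). In bulk RNA, fewer cells with a transcript and less transcript per cell cannot be told apart.

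In EpiSC Nr5a2 was lower than in each ESC group. Since ILMN_2634389 was above background on 1 of 3 EpiSC arrays, folds are given as bounds, with each EpiSC array at the higher of its own signal and the lowest signal of a detected probe. EpiSC were at least 2.59-fold lower than EsrrbNeg (fitted log2 fold change -1.49 ± 0.15, adjusted p = 1.12e-05), at least 11.5-fold lower than EsrrbMed (-3.64 ± 0.15, adjusted p = 9.53e-10) and at least 15.5-fold lower than EsrrbHi (-4.07 ± 0.15, adjusted p = 2.55e-10). These bounds hold for background-corrected values. Without background correction the changes were -1.997 against EsrrbMed and -2.35 against EsrrbHi. The order of levels was EpiSC, EsrrbNeg, EsrrbMed and EsrrbHi, and of neighbours only EsrrbMed and EsrrbHi were not separated by the test. Against EsrrbNeg the change was -0.57 without background correction and -0.56 in the authors' log2 table, both just under 1.5-fold.

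The second detected Nr5a2 probe, ILMN_2813203, was dimmer. Its intensity was 88.6, 85.5 and 87.7 in EpiSC, 116, 89.8 and 98.2 in EsrrbNeg, 207, 140 and 132 in EsrrbMed and 205, 172 and 149 in EsrrbHi arrays. No EpiSC array was above background (detection p 0.149 to 0.247). EsrrbNeg was 3.69-fold lower than EsrrbHi (log2 fold change -1.88 ± 0.09, adjusted p = 4.12e-09) and 2.85-fold lower than EsrrbMed (-1.51 ± 0.09, adjusted p = 9.29e-08), with -0.83 and -0.62 without background correction. EsrrbMed against EsrrbHi gave -0.37 ± 0.09 (adjusted p = 0.0471), under 1.5-fold. For EpiSC only bounds can be given, set in the same way. EpiSC were at least 4.31-fold lower than EsrrbHi (adjusted p = 4.74e-10), at least 3.33-fold lower than EsrrbMed (adjusted p = 2.97e-09) and at least 1.17-fold lower than EsrrbNeg (adjusted p = 0.000119). Without background correction these changes were -1.07, -0.86 and -0.24, the last under 1.5-fold. The third probe, ILMN_2751680, read 86.7 to 93.5 over the 12 arrays with a detection p of at least 0.0107, and gives no level.

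Nr0b1, an X-linked gene whose product can bind OCT4, has 1 probe on the array. ILMN_2615796 read 82.8, 83.6 and 80.4 in EpiSC, 88.3, 81.9 and 89.5 in EsrrbNeg, 90.5, 82.2 and 80.6 in EsrrbMed and 85.5, 84.8 and 78.5 in EsrrbHi arrays. The lowest detection p on any array was 0.0438, and the groups overlapped. The probe was not above background in any group, so no fold change is given, and these arrays do not say whether Nr0b1 RNA was present.

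Nr6a1 was detected on all arrays, and its levels had the reverse of the Nr5a2 order. ILMN_2739599 had intensities of 524, 559 and 517 in EpiSC, 865, 343 and 450 in EsrrbNeg, 775, 418 and 325 in EsrrbMed and 599, 420 and 286 in EsrrbHi arrays. These overlapped between groups on arrays of unequal brightness. Normalised levels averaged 9.11 ± 0.16 in EpiSC, 8.83 ± 0.16 in EsrrbNeg, 8.61 ± 0.01 in EsrrbMed and 8.48 ± 0.21 in EsrrbHi cells (log2, SD, n = 3 each). No neighbours in this order were separated by the test: EpiSC against EsrrbNeg gave 0.28 ± 0.14 (adjusted p = 0.133), EsrrbNeg against EsrrbMed 0.22 ± 0.12 (adjusted p = 0.216) and EsrrbMed against EsrrbHi 0.13 ± 0.12 (adjusted p = 0.691). Across the whole order, EpiSC were 1.55-fold higher than EsrrbHi (log2 fold change 0.63 ± 0.14, 95% confidence interval 0.32 to 0.94, adjusted p = 0.00198). EpiSC against EsrrbMed gave 0.50 ± 0.14 (adjusted p = 0.00945) and EsrrbNeg against EsrrbHi 0.35 ± 0.12 (adjusted p = 0.0374), both under 1.5-fold. The call in EpiSC against EsrrbHi fell under 1.5-fold without EsrrbHi replicate 2 (0.57), EsrrbHi replicate 3 (0.54) or EpiSC replicate 2 (0.55), without background correction (0.54) and in the authors' log2 table (0.53).

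Esrra, the relative of Esrrb linked to energy metabolism, was detected on every array by both probes and was called in no comparison. ILMN_2972292 had intensities of 274, 194 and 222 in EpiSC, 271, 153 and 172 in EsrrbNeg, 335, 188 and 154 in EsrrbMed and 248, 226 and 168 in EsrrbHi arrays, and its normalised level averaged 7.51 ± 0.25 in EpiSC, 6.93 ± 0.01 in EsrrbNeg, 7.11 ± 0.08 in EsrrbMed and 7.21 ± 0.06 in EsrrbHi cells (log2, SD, n = 3 each). ILMN_2766521 read 98.8 to 172 over the 12 arrays. By both probes the mean was highest in EpiSC and lowest in EsrrbNeg. EpiSC against EsrrbNeg gave 0.58 ± 0.13 (adjusted p = 0.00298) by ILMN_2972292, just under the 1.5-fold minimum, and 0.42 ± 0.15 (adjusted p = 0.0332) by ILMN_2766521. By ILMN_2972292 it was called without EpiSC replicate 2 (0.71), EsrrbNeg replicate 3 (0.60) or EsrrbHi replicate 1 (0.59), 2 (0.59) or 3 (0.62), and with median scaling (0.59). EsrrbNeg against EsrrbHi gave -0.28 ± 0.11 (adjusted p = 0.0618) and -0.24 ± 0.13 (adjusted p = 0.164). The 95% confidence intervals of these last changes, -0.53 to -0.04 and -0.51 to 0.04, hold no 1.5-fold change.

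Set against all 14834 kept probes, detected on all arrays of at least 1 group, the 6 kept member probes were counted as follows. In EsrrbNeg against EsrrbHi 3 were lower (1 of Esrrb and 2 of Nr5a2) and 0 higher, where 8.47% of all kept probes were lower and 8.43% higher. In EsrrbNeg against EsrrbMed the same 3 probes were lower, beside 5.64% lower and 5.16% higher of all. In EsrrbMed against EsrrbHi 1 was lower (Esrrb), beside 0.701% lower and 0.398% higher. These counts rest on Esrrb, the sorted gene, and Nr5a2. In EpiSC against EsrrbNeg 1 was higher (Esrrb) and 2 lower (both Nr5a2), beside 10.8% higher and 9.30% lower of all kept probes. In EpiSC against EsrrbMed 3 were lower (Esrrb and both Nr5a2), beside 13.8% lower and 15.7% higher. In EpiSC against EsrrbHi the same 3 were lower and 1 higher (Nr6a1), beside 15.3% lower and 17.1% higher.

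**Figure D2:**
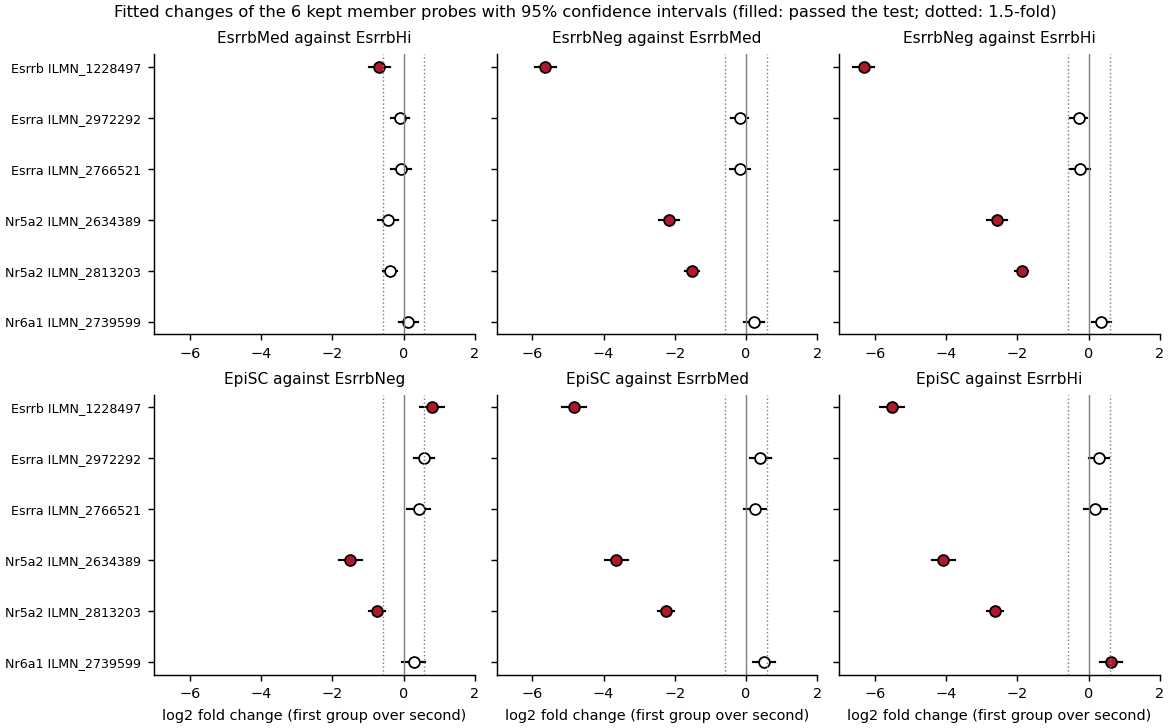
Log2 fold change with its 95% confidence interval of the 6 kept member probes in the 6 comparisons, first group over second; filled points were called and dotted lines mark 1.5-fold. Esrrb and both Nr5a2 probes lie far below 0 in EpiSC and EsrrbNeg against EsrrbMed and EsrrbHi; the EpiSC values of ILMN_2634389 come from arrays of which 1 of 3 was above background, and those of ILMN_2813203 from arrays not above background.

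Summed levels of marker lists for cell states and other cells also differed between the groups. The sum of 8 naive markers, Klf4, Tfcp2l1 and Nanog among them, was 658 to 1425 in EpiSC, 782 to 877 in EsrrbNeg, 4430 to 5443 in EsrrbMed and 6665 to 7137 in EsrrbHi arrays (linear normalised units). The sum of 5 markers shared by naive and primed cells (Pou5f1, Sox2, Sall4, Utf1 and Dppa4) was 5218 to 6049 in EpiSC, 9021 to 9830 in EsrrbNeg, 10942 to 11248 in EsrrbMed and 11020 to 11712 in EsrrbHi arrays, with the EpiSC arrays below all ESC arrays. In EpiSC against EsrrbNeg the 5 differed unevenly, from -2.35 ± 0.33 for Dppa4 to -0.11 ± 0.11 for Sall4. There 2 of the 5 were lower (Dppa4 and Sox2) and 0 higher, beside 9.30% and 10.8% of all kept probes. The 8 primed markers, 7 with a probe, summed to 10149 to 10912 in EpiSC, 11424 to 12434 in EsrrbNeg, 6746 to 7919 in EsrrbMed and 5046 to 5712 in EsrrbHi arrays. Dnmt3b had the highest level of this list in every group (12.76 in EpiSC and 13.20 in EsrrbNeg cells, log2). In EpiSC against EsrrbNeg 3 of the 6 kept primed markers were higher and 0 lower, beside 10.8% and 9.30% of all kept probes. Of 10 endoderm markers 2 (Dab2 and Amn) were detected on all arrays of every group and the list summed to 110 to 142 in EpiSC, 139 to 167 in EsrrbNeg, 61.6 to 90.5 in EsrrbMed and 51.7 to 70.3 in EsrrbHi arrays, with Gata4, Sox17, Cubn and Afp on no array. Of 8 fibroblast or feeder markers 3 (Col1a1, Thy1 and Dcn) were detected on all EpiSC arrays and 1 (Thy1) on all arrays of each ESC group, with sums of 111 to 222 in EpiSC, 69.3 to 93.7 in EsrrbNeg, 41.8 to 60.1 in EsrrbMed and 29.5 to 42.6 in EsrrbHi arrays. Of 7 trophectoderm markers 4, 3, 2 and 1 were detected on all EpiSC, EsrrbNeg, EsrrbMed and EsrrbHi arrays, with sums of 836 to 1054 in EpiSC, 315 to 477 in EsrrbNeg, 1109 to 1380 in EsrrbMed and 1016 to 1347 in EsrrbHi arrays and Elf5 and Hand1 on no array. Tfap2c had the highest level of this list in every group (9.07 in EpiSC and 10.14 in EsrrbHi cells, log2). Cdx2 and Eomes were highest in EpiSC, at 8.18 and 6.77, and not above background in EsrrbHi. In EpiSC against EsrrbHi 3 of the 5 kept trophectoderm markers were higher and 1 lower, beside 17.1% and 15.3% of all kept probes. The part of such cells in the values of the receptors was not tested.

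Few other nuclear receptors were detected. Of 44 further receptor genes 39 had a probe and 8 were kept: Rarg, Ppard, Nr1d2, Rxra, Rxrb, Rxrg, Nr2c1 and Nr2f6. Esrrg, Nr5a1 and Nr0b2, the nearest relatives of the members, were on no array above background. In EsrrbMed against EsrrbHi 0 were called (Rxrb 0.03 ± 0.09, adjusted p = 0.92). In EsrrbNeg, 8.43% of all kept probes were higher and 8.47% lower against EsrrbHi, and 5.16% and 5.64% against EsrrbMed. Rxrg, a retinoid X receptor gene, was the 1 receptor gene higher in EsrrbNeg, with 0 lower. It was not above background in EsrrbMed and EsrrbHi, and EsrrbNeg was at least 1.35-fold higher than EsrrbHi (adjusted p = 1.2e-05) and at least 1.31-fold higher than EsrrbMed (adjusted p = 0.000124). In EpiSC against EsrrbHi 2 were higher, Rxrg by at least 1.76-fold (adjusted p = 7.8e-07) and Nr2f6, of the COUP-TF family (0.67 ± 0.21, adjusted p = 0.0132), and 2 lower, the retinoic acid receptor gene Rarg (-0.81 ± 0.14, adjusted p = 0.000222) and the clock repressor gene Nr1d2 (-0.69 ± 0.17, adjusted p = 0.00399). Of all kept probes 17.1% were higher and 15.3% lower in EpiSC against EsrrbHi. In EpiSC against EsrrbMed 1 was higher (Rxrg) and 2 lower (Rarg and Nr1d2), beside 15.7% and 13.8% of all. In EpiSC against EsrrbNeg 0 were called, beside 10.8% higher and 9.30% lower of all. With 8 genes, these shares of the list are not read as a result. The median change of the 8 was -0.03 in EsrrbNeg and 0.07 in EpiSC, both against EsrrbHi, beside 0.03 and -0.01 over all kept probes.

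**Figure D3:**
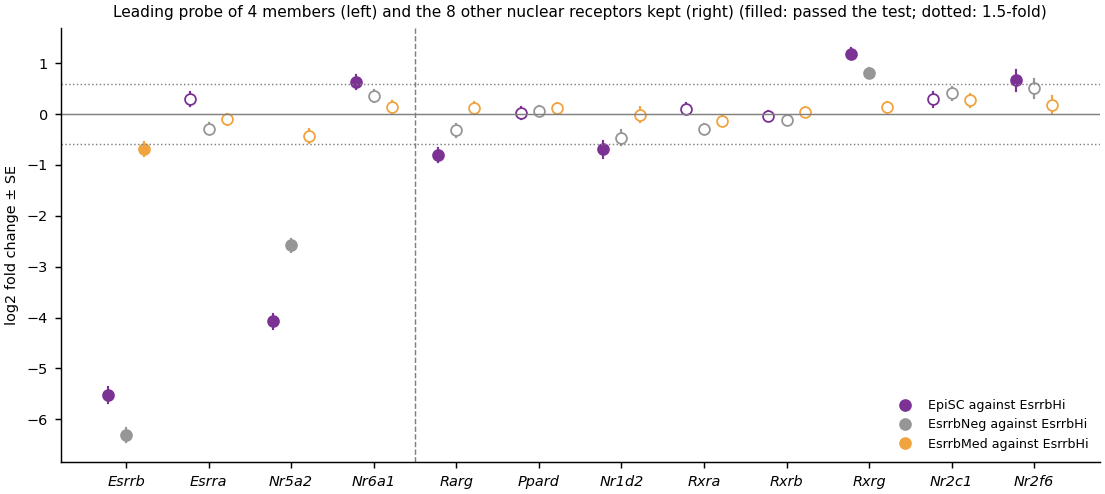
Log2 fold change ± SE of the leading probes of Esrrb, Esrra, Nr5a2 and Nr6a1 and of the 8 other nuclear receptors kept, in EpiSC, EsrrbNeg and EsrrbMed cells, each against EsrrbHi; filled points were called and dotted lines mark 1.5-fold. Esrrb reaches -6.32 and Nr5a2 -4.07, while the other receptors apart from Rxrg lie between -0.81 and 0.67. Rxrg was not above background in EsrrbMed and EsrrbHi, and Nr5a2 was above it on 1 of 3 EpiSC arrays, so those points are no exact folds.

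Of 25 genes for coregulators, which receptors recruit, 22 had a probe and 15 were kept. In EpiSC against EsrrbHi 5 of the 15 were lower and 0 higher, beside 15.3% lower and 17.1% higher of all kept probes. They were led by the acetyltransferase genes Ep300 (-0.97 ± 0.19, adjusted p = 0.000737) and Crebbp (-0.92 ± 0.18, adjusted p = 0.000802), the corepressor gene Trim28 (-0.87 ± 0.10, adjusted p = 9.26e-06) and Pprc1, a relative of PGC-1 (-0.68 ± 0.11, adjusted p = 0.000117). Crebbp was above background on 1 of 3 EpiSC and 2 of 3 EsrrbHi arrays. In EpiSC against EsrrbMed 5 and against EsrrbNeg 3 were lower, with 0 higher in both, beside 13.8% and 9.30% lower of all. Among the ESC groups Nsd1, a histone methyltransferase gene, was lower in EsrrbNeg than in EsrrbMed (-0.71 ± 0.14, adjusted p = 0.00232) and above background on 2 of 3 EsrrbNeg arrays, and 0 were called in the other ESC comparisons. The list median was -0.16 in EsrrbNeg and -0.46 in EpiSC, both against EsrrbHi, beside 0.03 and -0.01 over all kept probes.

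All 14 factors known to act upstream of Esrrb, Nr5a2 and Nr0b1, or beside them, were kept. Nanog, Klf2, Klf4, Tfcp2l1 and Tbx3 also stand among the naive markers summed above, and Pou5f1, Sox2 and Sall4 among the shared markers. The counts of the 14 are thus not separate from those sums. In EsrrbMed against EsrrbHi 3 were lower and 0 higher: Tbx3 (-0.90 ± 0.12, adjusted p = 0.00373), Tfcp2l1 (-0.76 ± 0.13, adjusted p = 0.00719) and Nanog (-0.69 ± 0.17, adjusted p = 0.0459), all factors of naive pluripotency. Of all kept probes 0.701% were lower and 0.398% higher in that comparison. In EsrrbNeg against EsrrbHi 7 were lower and 0 higher, beside 8.47% and 8.43% of all kept probes, led by Tfcp2l1 (-3.89 ± 0.13, adjusted p = 1.32e-10), Klf4 (-2.87 ± 0.24, adjusted p = 5.92e-07), Klf2 (-2.71 ± 0.46, adjusted p = 0.000353) and Nanog (-2.60 ± 0.17, adjusted p = 5.18e-08). Klf4 was above background on 2 of 3 EsrrbNeg arrays. In EsrrbNeg against EsrrbMed 7 were also lower, led by Tfcp2l1 (-3.13 ± 0.13, adjusted p = 2.73e-09), and 0 higher, beside 5.64% and 5.16% of all. In EpiSC against EsrrbHi 10 of the 14 were lower and 0 higher, beside 15.3% and 17.1% of all. Among them were Tfcp2l1 (-4.71 ± 0.15, adjusted p = 5.58e-11), Klf2 (-2.66 ± 0.53, adjusted p = 0.000784), Klf4 (-2.39 ± 0.27, adjusted p = 6.42e-06) and Tbx3, at least 5.99-fold lower (adjusted p = 4.16e-09). In EpiSC against EsrrbMed 8 were lower and 0 higher, beside 13.8% and 15.7% of all. Prdm14, a regulator of naive pluripotency, was not above background in EpiSC or EsrrbNeg, and EpiSC were at least 1.46-fold lower than EsrrbHi (adjusted p = 0.000132). In EpiSC against EsrrbNeg 4 were lower and 1 higher, beside 9.30% and 10.8% of all. The lower were Sox2 (-1.21 ± 0.20, adjusted p = 0.000438), Klf5 (-1.20 ± 0.16, adjusted p = 8.96e-05), Stat3 (-1.12 ± 0.11, adjusted p = 9.27e-06) and Tfcp2l1 (-0.82 ± 0.15, adjusted p = 0.000663). Nanog alone was higher (0.72 ± 0.19, adjusted p = 0.00815), with a reporter in 1 of its alleles in EpiSC.

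**Figure D4:**
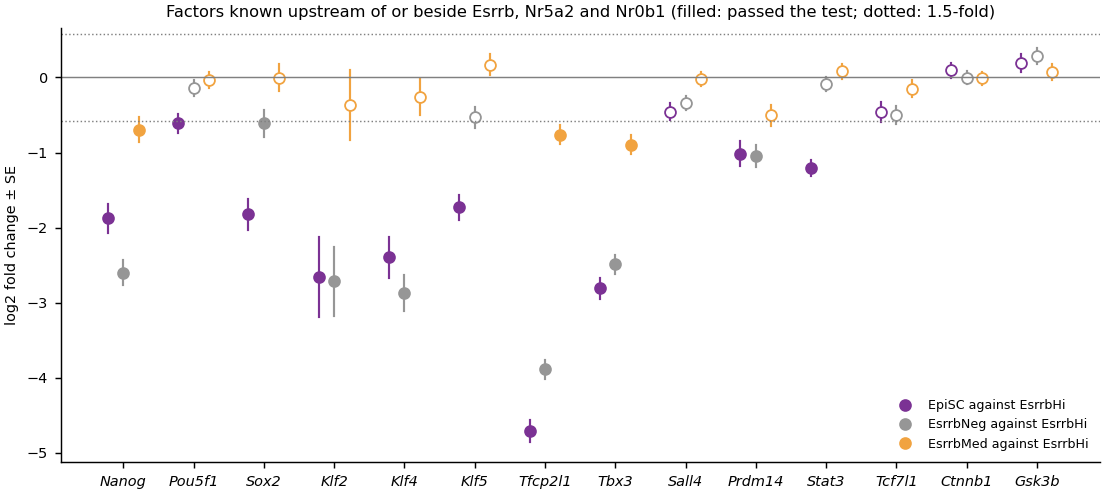
Log2 fold change ± SE of the 14 factors known to act upstream of or beside Esrrb, Nr5a2 and Nr0b1, in EpiSC, EsrrbNeg and EsrrbMed cells, each against EsrrbHi; filled points were called and dotted lines mark 1.5-fold. Tfcp2l1 reaches -4.71 in EpiSC and -3.89 in EsrrbNeg, and Nanog stands higher in EpiSC (-1.88) than in EsrrbNeg (-2.60); Prdm14 in EpiSC and EsrrbNeg and Tbx3 in EpiSC were not above background.

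Genes known to lie downstream of NR6A1 and ESRRA were counted in the same way. Shares of all kept probes not repeated here are those given with the member counts above. Of 7 genes known to be repressed by NR6A1, 6 had a probe and 4 were kept. In EpiSC against EsrrbHi, where 15.3% of all kept probes were lower and 17.1% higher, 3 of the 4 were lower and 0 higher: Nanog (-1.88 ± 0.19, adjusted p = 2.21e-06), Sox2 (-1.82 ± 0.20, adjusted p = 5.28e-06) and Pou5f1 (-0.61 ± 0.13, adjusted p = 0.000995). In EsrrbNeg against EsrrbHi Nanog (-2.60 ± 0.17, adjusted p = 5.18e-08) and, just past 1.5-fold, Sox2 (-0.61 ± 0.18, adjusted p = 0.014) were lower. Pou5f1 was not called there (-0.14 ± 0.11, adjusted p = 0.334). Dnmt3b, a de novo DNA methyltransferase gene, was higher in the same comparison (0.92 ± 0.09, adjusted p = 3.32e-06). In EsrrbMed against EsrrbHi 1 was lower and 0 higher, in EsrrbNeg and EpiSC against EsrrbMed 2 were lower and 0 higher in each, and in EpiSC against EsrrbNeg 1 was higher and 1 lower. The median of the 4 was -0.38 in EsrrbNeg and -1.22 in EpiSC, both against EsrrbHi, and all of them but Dnmt3b also stand among the 14 factors above. Of 17 mitochondrial and metabolic genes known as targets of ESRRA with PGC-1, 16 had a probe and 13 were kept. In EsrrbNeg against EsrrbHi 2 of the 13 were lower and 0 higher, beside 8.47% and 8.43% of all kept probes: Sod2, for mitochondrial superoxide dismutase (-1.49 ± 0.09, adjusted p = 3.18e-08), and Acadm, for a fatty acid oxidation enzyme (-1.12 ± 0.09, adjusted p = 5.16e-07). In EpiSC against EsrrbHi 3 of the 13 were lower, Acadm, Sod2 and Pdk4, and 1 higher, Vegfa, for an angiogenic growth factor (2.18 ± 0.33, adjusted p = 8.7e-05), beside 15.3% and 17.1% of all. With 13 genes, neither share of the list is read as a result. Pdk4, for a kinase that restrains pyruvate oxidation, was not above background in EpiSC, which were at least 1.18-fold lower than EsrrbHi (adjusted p = 5.39e-05). In EsrrbMed against EsrrbHi 0 were called, in EsrrbNeg against EsrrbMed 2 were lower, in EpiSC against EsrrbMed 4 were lower and 1 higher, and in EpiSC against EsrrbNeg Vegfa alone was higher (2.00 ± 0.33, adjusted p = 0.000402), with 2 of 3 EsrrbNeg arrays above background. The list median was -0.04 in EsrrbNeg and -0.07 in EpiSC, both against EsrrbHi, beside 0.03 and -0.01 over all kept probes.

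The genes with the profiles most like those of the called members were found by the root mean square difference over the 12 arrays between log2 values centred on each probe's mean. For Esrrb these were Lgals3 (0.99), Tfcp2l1 (1.01), Tcl1 (1.03), Lrrc34 (1.08) and Mylpf (1.17). In EsrrbNeg against EsrrbHi these 5 differed by -4.11 to -3.45, with Lgals3, for galectin-3, at -3.92, where Esrrb differed by -6.32. For Nr5a2 they were Acsbg3 (0.24), Enox1 (0.24), Cpsf4l (0.27), Fabp3 (0.28) and Fam25c (0.28). Fabp3, for a fatty acid binding protein, differed by -4.43 in EpiSC and -2.32 in EsrrbNeg, both against EsrrbHi, beside -4.07 and -2.58 for Nr5a2. These genes were chosen for such likeness, and Nr5a2 was above background on 1 of 3 EpiSC arrays. For Nr6a1 they were Glg1 (0.07), M6pr (0.07), Rnf14 (0.08), Jkamp (0.08) and Mios (0.09), small distances among probes that all changed little. Over the 9 ESC arrays 4 of the 5 genes for Esrrb, 2 of those for Nr5a2 and 1 of those for Nr6a1 were the same.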

How the data were processed

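RNA of 4 groups, 3 samples each, was labelled (100 ng) and hybridised to 12 arrays on 2 chips. The authors deposited bead-summary intensities on a linear scale, not normalised, with a detection p-value per probe. The authors also deposited a table of normalised log2 values of 38563 probes, made with beadarray, quantile normalisation and ComBat per the methods, which was used as an alternative. Here intensities were background-corrected and quantile-normalised with neqc (limma 3.58.1, R 4.3.3, offset 16). The 14834 probes detected (p up to 0.01) throughout at least 1 group were fitted with limma (group and chip, all 12 arrays, 6.55 prior and 7 residual degrees of freedom), with Benjamini-Hochberg adjustment over kept probes within a comparison. Replicates correlated at 0.986 to 0.995. Of all probes 32093 were annotated to 1 gene, 16 to several and 13172 to none. The probe with the highest mean led each gene. Up to 4 called genes of a list with the largest change were named, and Prdm14 besides, or its brightest if none was called. Members and lists were chosen with earlier results of these data known.

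Same-numbered ESC samples deviated together (r = 0.237 to 0.552 for each pair, -0.46 to 0.235 for other pairs), and the numbers also follow the chip in part. With the chip difference removed, r was -0.60 to 0.19 for same-numbered ESC pairs and -0.45 to 0.35 for other ESC pairs, which overlapped. EpiSC were not paired with the ESC samples (r = -0.06 to 0.06 without that removal). Alternatives covered background correction, scaling, filters, thresholds, chip, replicate block and leaving out each array. The scripts were tested on simulated data. Drawings used matplotlib 3.10.9.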

Additional observations from a re-analysis of the deposited data

How the results depend on the processing

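Of 162 alternative counts of called member probes 144 stayed within 1.5 times of the reported count, and of 407 values of called probes 22 were no longer called and 0 reversed. In EpiSC against EsrrbNeg the count of 3 was 0 without background correction, 0 in the authors' log2 table, 1 with an offset of 50 and 5 with no fold minimum. In EsrrbMed against EsrrbHi the count of 1 was 0 without the filter on detection, 0 within chip 2, 0 at an adjusted p of at most 0.01 and 2 with no fold minimum, which also gave 5 for EpiSC against EsrrbMed. Among probes detected on all 12 arrays, which leaves out Nr5a2 by construction, the counts were 1, 1 and 1 for EsrrbNeg compared with EsrrbMed, for EsrrbNeg compared with EsrrbHi and for EpiSC compared with EsrrbNeg, and 1 and 2 for EpiSC compared with EsrrbMed and EsrrbHi. Leaving out 1 array gave 0 to 1 calls in EsrrbMed against EsrrbHi, 3 to 4 in EpiSC against EsrrbNeg and EpiSC against EsrrbHi, and 3 in the other comparisons. The uncalled Esrra ILMN_2766521 turned to -0.021 in the authors' table and -0.043 without the chip term or with the replicate block in its place (EpiSC against EsrrbHi, reported 0.19), and to 0.011 within chip 2 (EsrrbMed against EsrrbHi, reported -0.066). For the settings other than the filters, the cause was not tested.

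Called probes over all genes numbered 163, 1603, 2508, 2982, 4386 and 4801 in the 6 comparisons, from EsrrbMed against EsrrbHi to EpiSC against EsrrbHi. Their lowest counts over the alternatives were 0 within chip 2, 501 and 862 in the authors' table, and 983, 1725 and 2000 without background correction. With no fold minimum they were 356, 4059, 5812, 6396, 8052 and 8339.

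With the replicate block, the pairing changed no count within the 9 ESC arrays (1, 3 and 3). In place of the chip over all 12 arrays the block gave 2 in EpiSC against EsrrbNeg, without Nr5a2 ILMN_2813203 (-0.58). Median scaling in place of quantile normalisation put the median change of all kept probes in EpiSC against EsrrbHi at -0.10, against -0.01 as reported. Of 148 called changes of list genes 0 reversed in sign under the 4 other scalings and backgrounds. How many of them stayed called was not counted. All 17 called member changes were smaller without background correction, 13 of them by over 1.5 times. The 3 calls in EpiSC against EsrrbNeg, at signals near background, were all lost without background correction, and 3 arrays per group limit the precision.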
